A study of Mus musculus with 6 samples.

Results

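The genes examined here code for the signalling machinery that brings a bound outer segment into a cell of the retinal pigment epithelium (RPE), the pigmented layer behind the retina that engulfs shed photoreceptor tips. They are 9 of the 12556 genes measured: Ptk2, Crk, Dock1, Elmo1, Elmo2, Rac1, Cdc42, Gulp1 and Anxa2. They were taken by gene symbol and not by a cut on their values, but with earlier results of these data known. All 9 were measured. RNA was sequenced from primary RPE cultures in 2 groups of 3 libraries. In the POS-challenged group, mouse photoreceptor outer segment (POS) membranes were left on the cells for 1.5 h, at roughly 10 POS to each RPE cell, before washing. The unchallenged group got no POS. Both groups used cells of C57BL/6J mice, 10 to 12 days old, seeded at about 1 eye per well and kept for 5 to 6 days on supports with 0.4 µm pores. The labels speak of biological replicates but not of separate litters or days, so p-values measure only the spread between these libraries, which may be technical in part.

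In the RPE the integrin alpha-v beta-5 binds outer segments and activates focal adhesion kinase, the product of Ptk2, which passes the signal on to the engulfment receptor MERTK. Engulfment then needs actin to be rebuilt under the particle: the adaptor CRK, recruited to phosphorylated p130Cas, brings in DOCK1, and DOCK1 with an ELMO protein forms an exchange factor that loads RAC1 with GTP. RAC1 and CDC42 drive branched actin through WAVE and WASP proteins and the ARP2/3 complex, GULP1, a relative of worm CED-6, is an adaptor for engulfment receptors, and annexin A2 is a calcium-dependent protein that binds membranes and actin. Phosphorylation, GTP loading and recruitment, by which these proteins are switched on, are not measured by RNA.

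RefSeq start-site windows (assembly GRCm38.p6), running from 250 bases before a start to 50 after it, were at hand for 7 of the 9 genes, as 10 windows. The windows of the ELMO paralogs are printed because this pair differed most in level among the paralogs compared, and because both genes have further starts inside the gene that 1 value per gene cannot separate from the first. One such start is shown, that of Elmo1. Capitals mark the GC box GGGCGG or its reverse complement CCGCCC.
Elmo1, upstream start, chr13:20090257-20090556, plus strand: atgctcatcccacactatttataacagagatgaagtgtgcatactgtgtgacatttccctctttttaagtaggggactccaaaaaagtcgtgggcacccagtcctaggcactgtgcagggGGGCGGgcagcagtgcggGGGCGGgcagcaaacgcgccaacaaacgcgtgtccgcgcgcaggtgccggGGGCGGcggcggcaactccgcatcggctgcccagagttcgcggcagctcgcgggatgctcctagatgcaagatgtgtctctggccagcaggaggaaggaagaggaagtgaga
Elmo1, downstream start, chr13:20472740-20473039, plus strand: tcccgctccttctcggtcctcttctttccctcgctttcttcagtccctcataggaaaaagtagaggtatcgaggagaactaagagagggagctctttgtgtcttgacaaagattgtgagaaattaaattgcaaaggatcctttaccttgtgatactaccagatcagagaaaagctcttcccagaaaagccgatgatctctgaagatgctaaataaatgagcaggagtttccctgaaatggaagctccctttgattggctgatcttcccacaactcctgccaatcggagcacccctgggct
Elmo2, outermost start, chr2:165326430-165326729, minus strand: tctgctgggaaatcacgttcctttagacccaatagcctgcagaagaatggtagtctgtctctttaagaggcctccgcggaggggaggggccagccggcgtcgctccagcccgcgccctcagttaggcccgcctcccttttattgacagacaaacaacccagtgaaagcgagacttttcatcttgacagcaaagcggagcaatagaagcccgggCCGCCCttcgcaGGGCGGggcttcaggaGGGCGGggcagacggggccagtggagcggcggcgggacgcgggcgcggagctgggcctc
The upstream Elmo1 window held 3 GC boxes and 21 CpG sites, and the outermost Elmo2 window 3 GC boxes and 24 CpG sites. The downstream Elmo1 window held 0 GC boxes and 6 CpG sites. The other 2 Elmo2 windows, which are not printed, likewise held 0 GC boxes, with 6 and 8 CpG sites. Of the 10 windows 7 held a GC box on either strand, beside 35.7% of all 32851 windows, which had a median of 7 CpG sites. The 32851 windows were all those at hand, not matched to the 7 genes in RNA level. A match describes letters only and says nothing of binding.

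How abundant the genes were relative to each other was compared per kb of merged exon (GENCODE M21 basic annotation of GRCm38), as normalized read counts per kb. Anxa2 stood highest, at 19515 ± 2442 per kb in POS-challenged and 21515 ± 281 per kb in unchallenged cultures (SD, n = 3 each), above 99.8% of the 11931 genes with a known length. Cdc42 had 5464 ± 374 per kb in POS-challenged and 5926 ± 143 per kb in unchallenged cultures. Rac1 had 2759.6 ± 241 per kb in POS-challenged and 2981 ± 66.8 per kb in unchallenged cultures. These genes for the GTPases and annexin A2 were thus among the most abundant of all, and Crk, at 1778 ± 44.9 per kb in POS-challenged and 1876 ± 19.6 per kb in unchallenged cultures, was above 92.7% of genes. Gulp1 had 854 ± 71.5 per kb in POS-challenged and 792 ± 148 per kb in unchallenged cultures. Elmo2 had 619 ± 36.2 per kb in POS-challenged and 635 ± 53.2 per kb in unchallenged cultures. Ptk2 and Dock1, the kinase and the exchange factor genes, came next in the order. Ptk2 had 511 ± 16.8 per kb in POS-challenged and 539 ± 28.9 per kb in unchallenged cultures, and Dock1 had 339 ± 25.1 and 328 ± 20.2 per kb with the groups in that order. Elmo1 was lowest, at 60.7 ± 5.88 per kb in POS-challenged and 54.6 ± 5.81 per kb in unchallenged cultures, above 23.2% of genes. Neighbours in this order did not overlap in any library, except that the lowest Gulp1 library (637 per kb) lay under the highest Elmo2 library (668 per kb).

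**Figure D1:**
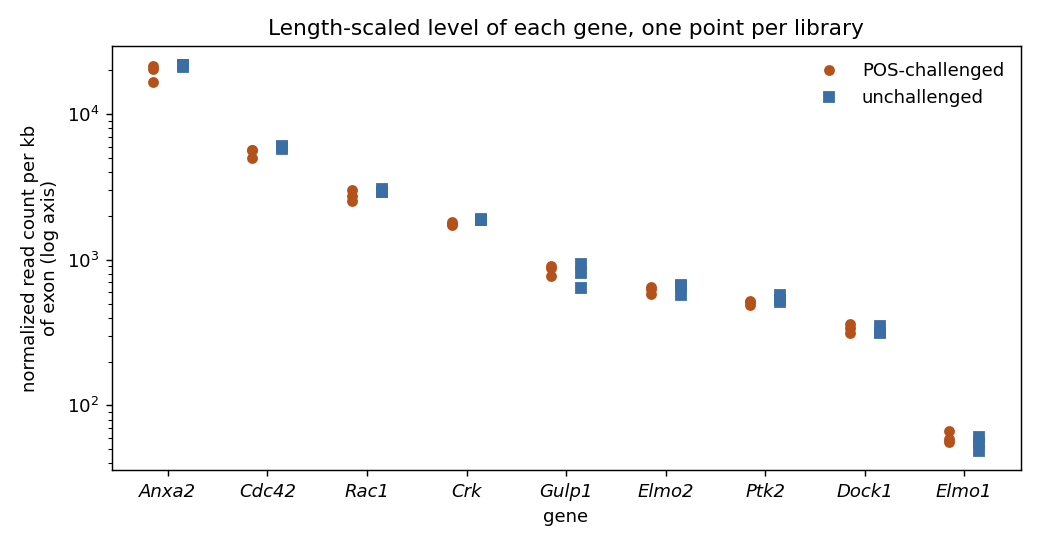
Normalized read count per kb of exon (log axis) of each of the 9 genes, 1 point per library, with POS-challenged left of unchallenged. Anxa2 is at or above 16739.7 per kb in every library and Elmo1 at or below 67.2 per kb, and the points of both groups lie close together for each gene.

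Each gene has a single value per library, and the sources used here do not say whether strand was used in counting. Rac1 is uncertain for that reason: 2309 of its 4216 exonic bases also lie in exons of Daglb, a lipase gene on the other strand, and 50.3% of the distinct 50-base words of its transcripts occur in Daglb transcripts. Daglb had 119.6 normalized read counts per kb in POS-challenged and 107 in unchallenged cultures, far below Rac1. Daglb was counted under the same unknown rule, so its level cannot settle that of Rac1. Of the Cdc42 words 2.19% occur in processed pseudogenes, and of those of the other 7 genes between 0% and 2.93% occur in other genes.

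On GRCm38, Ptk2 (Entrez Gene 14083) spans 73205102 to 73423280 on chromosome 15, Crk (12928) 75679259 to 75706908 on chromosome 11 and Dock1 (330662) 134670654 to 135173639 on chromosome 7. Elmo1 (140580) spans 20090596 to 20608353 on chromosome 13 and Elmo2 (140579) 165288031 to 165326479 on chromosome 2. Rac1 (19353) spans 143503634 to 143528036 on chromosome 5 and Cdc42 (12540) 137319696 to 137357720 on chromosome 4. Gulp1 (70676) spans 44551511 to 44796838 on chromosome 1 and Anxa2 (12306) 69453620 to 69491795 on chromosome 9.

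Some libraries stood apart. Summed reads ranged between 24869273 and 30420028 per library. Interferon-stimulated genes were high in unchallenged replicates 1 and 3 (list mean 10.87 and 11.26 on the log2 scale) and between 5.63 and 8.77 in the other 4 libraries. Sterol synthesis genes were low in POS-challenged replicate 3 (list mean 10.59) and between 11.64 and 11.85 in the other 5, and the 10 most abundant genes took 8.23% of reads in that library and 10.7% or more in the others. RPE markers were present (17 of 18 measured), with summed levels of 43319.7 to 65199.8 in POS-challenged and 42882 to 57646 in unchallenged libraries. These markers differed widely in level. Cdh1 was lowest, at 14.9 ± 9.17 normalized read counts in POS-challenged and 24.0 ± 8.57 in unchallenged libraries. Tyr was highest, at 21990 ± 5455 in POS-challenged and 21709 ± 4685 in unchallenged libraries. Rpe65, the isomerase gene of the visual cycle, had 157 ± 44.7 in POS-challenged and 136 ± 32.4 in unchallenged libraries. Fibroblast markers (8 of 8 measured) summed to 56446 to 73282 in POS-challenged and 63111 to 87749.9 in unchallenged libraries, and Müller glia markers (5 of 7), some of which RPE also makes, to 87253 to 120584 in POS-challenged and 105814 to 117094 in unchallenged libraries. Macrophage and microglia markers (11 of 14) summed to 1085 to 1533 in POS-challenged and 1285 to 1557 in unchallenged libraries. Endothelial markers (5 of 9) summed to 480.2 to 518 in POS-challenged and 500.5 to 525 in unchallenged libraries, and melanocyte markers (5 of 5) to 2159 to 3653 in POS-challenged and 2163 to 3075 in unchallenged libraries. Of 24 photoreceptor markers only Sag, the rod arrestin gene, was measured, at 924, 987 and 578 in POS-challenged and 17.9, 26.6 and 21.1 in unchallenged replicates. The part of other cells in the results below was not tested, and in RNA of whole cultures fewer cells of a type and less RNA per cell cannot be told apart.

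The comparison of POS-challenged with unchallenged cultures asks whether the RNA of the engulfment machinery differs after 1.5 h with outer segments. None of the 9 genes was called. In limma on log2(value + 1), 0 of 9 passed an adjusted p of 0.05 over all 12556 genes, beside 0.0956% of all genes (0.0637% higher and 0.0319% lower). At an unadjusted limma p under 0.05 there were 0 of 9, beside 11.5% of all genes (4.87% higher and 6.58% lower). The authors' deposited table called 0 of 9 at its adjusted p, beside 2.55% of its genes with an adjusted p (0.871% higher and 1.68% lower), and had 0 of 9 at an unadjusted p under 0.05, beside 11.7% of its genes. The log2 fold changes ran from -0.15 to 0.15, and 6 of 9 were negative, beside 48.3% of all genes. Their median was -0.077, beside 0.0069 over all genes, and their median size without sign was 0.11, beside 0.12. With quantile normalization 6 were positive and 3 negative (median 0.011, beside 0.030 over all genes). The 95% intervals of limma reached at most a level 24.5% lower (Anxa2) and 37.1% higher (Gulp1) in POS-challenged cultures, so that a 2-fold difference lay outside all 9 of them.

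**Figure D2:**
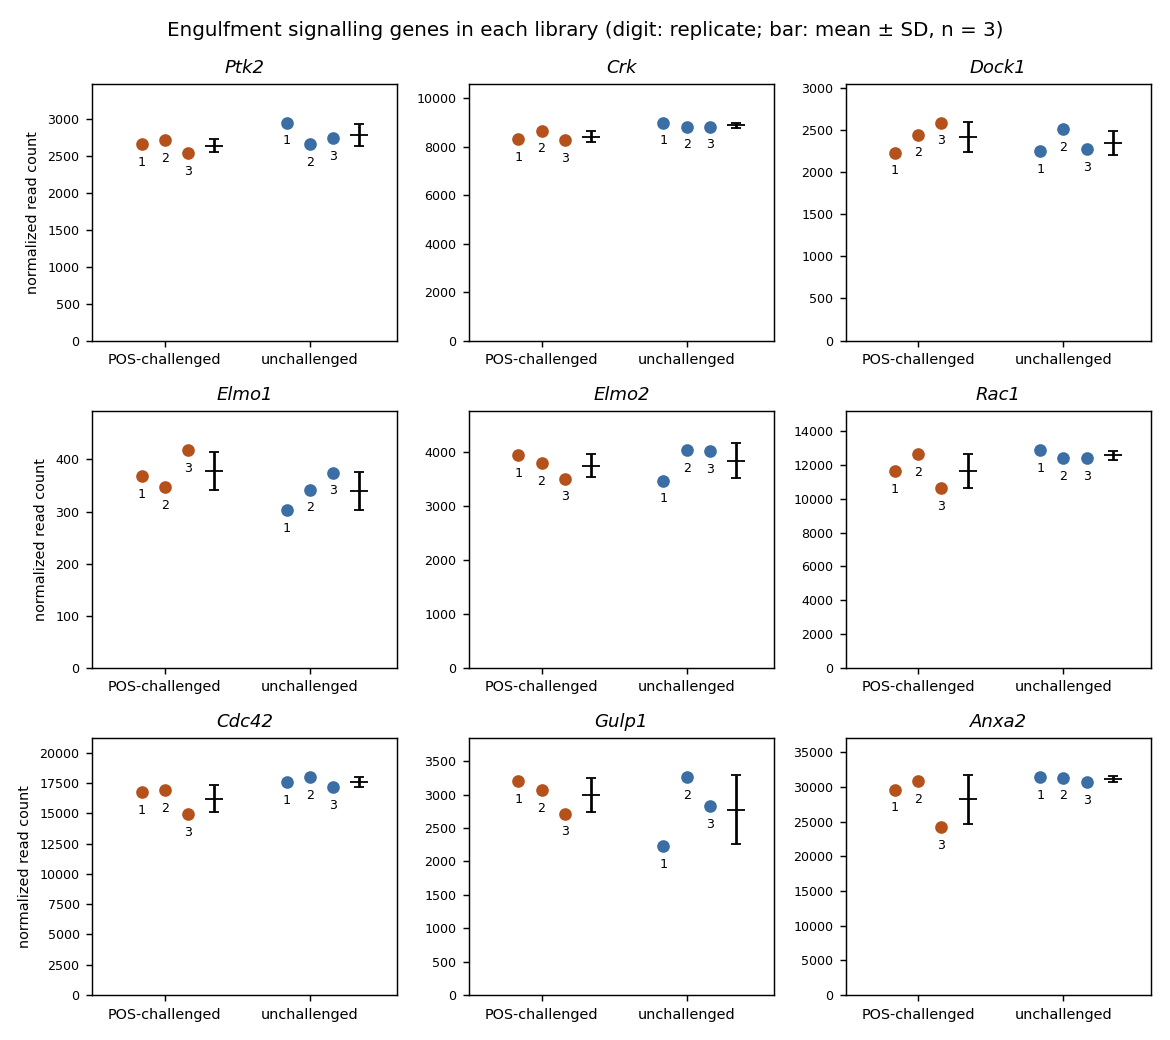
Normalized read count (linear axes from 0) of each gene in every library, POS-challenged left of unchallenged, with replicate numbers and the mean ± SD. The groups are apart for Crk and Cdc42 alone, by small margins, and POS-challenged replicate 3 is the lowest library of 5 genes.

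Ptk2, the gene of focal adhesion kinase, stood at 2657, 2713 and 2543 normalized read counts in POS-challenged replicates 1 to 3, against 2949, 2659.9 and 2740.1 in unchallenged replicates 1 to 3. Unchallenged replicate 1 stood above the rest, and the groups overlapped. On the log2 scale Ptk2 differed by -0.077 ± 0.067 (fold change ± SE, here and below; limma adjusted p = 0.676). The gene of its substrate p130Cas, Bcar1, averaged 7082 ± 333 in POS-challenged and 7308 ± 511 in unchallenged libraries (limma adjusted p = 0.846). Relative to Ptk2b, the gene of the related kinase PYK2, Ptk2 had a log2 ratio of 1.38 ± 0.25 in POS-challenged and 1.49 ± 0.17 in unchallenged libraries (exact permutation p = 0.5, 0.875 adjusted over the 7 ratios). With 3 libraries against 3 this exact test cannot go below 0.1.

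Crk, the gene of the SH2 and SH3 adaptor, stood at 8314, 8652 and 8261 in POS-challenged replicates 1 to 3, against 8979, 8817 and 8821 in unchallenged replicates 1 to 3. It was the least variable of the 9 (SD 0.049 on the log2 scale over the 6 libraries), and every POS-challenged value lay below every unchallenged one. Its log2 fold change was -0.078 ± 0.060 (limma adjusted p = 0.640), and its sign turned with quantile normalization (0.011). Crkl, the gene of the paralog CRKL, averaged 2279.6 ± 101 in POS-challenged and 2240.4 ± 17.0 in unchallenged libraries, with overlap. The log2 ratio of Crk to Crkl was 1.88 ± 0.066 in POS-challenged and 1.99 ± 0.012 in unchallenged libraries, without overlap (exact permutation p = 0.1, 0.7 adjusted over the 7 ratios).

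Dock1, the gene of the exchange factor DOCK180, stood at 2230.3, 2446 and 2586 in POS-challenged replicates 1 to 3, against 2252, 2512 and 2273 in unchallenged replicates 1 to 3. The groups overlapped, with POS-challenged libraries both lowest and highest. The log2 fold change of 0.045 ± 0.081 (limma adjusted p = 0.854) became -0.0043 without POS-challenged replicate 3. Dock5, a close relative, averaged 4078 ± 642 in POS-challenged and 4533 ± 291 in unchallenged libraries. The log2 ratio of Dock1 to Dock5 was -0.96, -0.90 and -0.37 in POS-challenged replicates 1 to 3, against -0.99, -0.95 and -0.91 in unchallenged replicates 1 to 3, so that POS-challenged replicate 3 stood out. The difference of 0.21 (exact permutation p = 0.3, 0.7 adjusted over the 7 ratios) was 0.023 without that library.

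Elmo1, one of the genes for the partner of DOCK1, stood at 368, 347 and 418 in POS-challenged replicates 1 to 3, against 303, 342 and 375 in unchallenged replicates 1 to 3. The highest value was in POS-challenged replicate 3 and the lowest in unchallenged replicate 1, and the groups overlapped. The log2 fold change was 0.15 ± 0.12 (limma adjusted p = 0.641), but 0.073 without unchallenged replicate 1 and 0.078 without POS-challenged replicate 3. Elmo2 stood at 3936, 3796 and 3507 in POS-challenged replicates 1 to 3, against 3471, 4038 and 4018 in unchallenged replicates 1 to 3. Here POS-challenged replicate 3 and unchallenged replicate 1 were the lowest libraries, and the groups overlapped. The log2 fold change of -0.035 ± 0.084 (limma adjusted p = 0.898) had the other sign without POS-challenged replicate 3 (0.012), without unchallenged replicate 2 (0.0029) and with quantile normalization (0.020).

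Elmo2, whose start-site sequence is given above beside those of Elmo1, was the more abundant ELMO gene in every library. Per kb, Elmo1 made up 8.34%, 8.16% and 10.4% of the sum of both in POS-challenged replicates 1 to 3, against 7.82%, 7.61% and 8.32% in unchallenged replicates 1 to 3. The share was highest in POS-challenged replicate 3. The log2 ratio of Elmo1 to Elmo2 was -3.31 ± 0.21 in POS-challenged and -3.50 ± 0.072 in unchallenged libraries, a difference of 0.19 (exact permutation p = 0.2, 0.7 adjusted over the 7 ratios) that came to 0.066 without that library. Elmo3 averaged 317 ± 43.6 normalized read counts in POS-challenged and 299.6 ± 55.3 in unchallenged libraries (limma adjusted p = 0.867).

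Rac1, the gene of the GTPase that DOCK1 and ELMO load, stood at 11622, 12658 and 10624 in POS-challenged replicates 1 to 3, against 12892, 12414 and 12396 in unchallenged replicates 1 to 3. POS-challenged replicate 3 was lowest, and replicate 2 lay among the unchallenged values. Its log2 fold change was -0.11 ± 0.083 (limma adjusted p = 0.613), with -0.051 without POS-challenged replicate 3, -0.18 without replicate 2 and -0.016 with quantile normalization. Cdc42, the gene of the GTPase that acts through WASP proteins, stood at 16762, 16924 and 14929 in POS-challenged replicates 1 to 3, against 17578, 18002 and 17153 in unchallenged replicates 1 to 3. Its groups did not overlap, with every POS-challenged value below. For Cdc42 the log2 fold change was -0.12 ± 0.079 (limma adjusted p = 0.583) and 0.0085 with quantile normalization. Crk and Cdc42 were the 2 of 9 genes whose groups did not overlap, both with POS-challenged values below, beside 10.4% of all genes in that direction, 9.56% in the other and 20.0% in either.

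The GTPase genes were also set against each other library by library. Within a library, the log2 ratio of Rac1 to Cdc42 was -0.48 ± 0.056 in POS-challenged and -0.48 ± 0.046 in unchallenged libraries, a difference of 0.0046 (exact permutation p = 0.9, 1 adjusted over the 7 ratios). Rhoa, the gene of the GTPase that drives contractile actin, averaged 12161 ± 932 normalized read counts in POS-challenged and 13192 ± 318 in unchallenged libraries (limma adjusted p = 0.578). The log2 ratio of Rac1 to Rhoa was -0.040, -0.058 and -0.096 in POS-challenged replicates 1 to 3, against -0.053, -0.11 and -0.049 in unchallenged replicates 1 to 3 (exact permutation p = 0.7, 0.98 adjusted over the 7 ratios). Rac1 alone had an SD of 0.10 on the log2 scale over the same 6 libraries.

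Gulp1, the gene of the engulfment adaptor, stood at 3199.9, 3068 and 2715 in POS-challenged replicates 1 to 3, against 2231, 3265 and 2831 in unchallenged replicates 1 to 3. It was the most variable of the 9 (SD 0.20 on the log2 scale), and unchallenged replicate 1 lay below every other library. The log2 fold change of 0.12 ± 0.14 (limma adjusted p = 0.756) became -0.025 without that library. Among 10250 genes with a mean of at least 100, those whose centred log2 values ran closest to Gulp1 over the 6 libraries were Prps2, Hsdl2 and Myh10, with a root mean square difference of 0.038 to 0.040. For Elmo1, the next most variable, they were Agap3, Tnik and Phf20 (0.033 to 0.036). The likeness describes 6 libraries that share their culture conditions.

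Anxa2, the gene of annexin A2, stood at 29615, 30875 and 24222 in POS-challenged replicates 1 to 3, against 31406, 31326 and 30666 in unchallenged replicates 1 to 3. POS-challenged replicate 3 lay well below the other 5 libraries, and the groups overlapped. The log2 fold change of -0.15 ± 0.11 (limma adjusted p = 0.623) was -0.042 without it. S100a10, whose product forms a complex with annexin A2, stood at 3966, 4156 and 3985 in POS-challenged replicates 1 to 3, against 4539, 4445 and 4368 in unchallenged replicates 1 to 3. Its groups did not overlap, with POS-challenged values below, and it did not pass (log2 fold change -0.14 ± 0.058, limma adjusted p = 0.423). The log2 ratio of Anxa2 to S100a10 was 2.80 ± 0.17 in POS-challenged and 2.81 ± 0.014 in unchallenged libraries, and the difference of -0.0075 (exact permutation p = 1, 1 adjusted over the 7 ratios) was 0.090 without POS-challenged replicate 3.

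**Figure D3:**
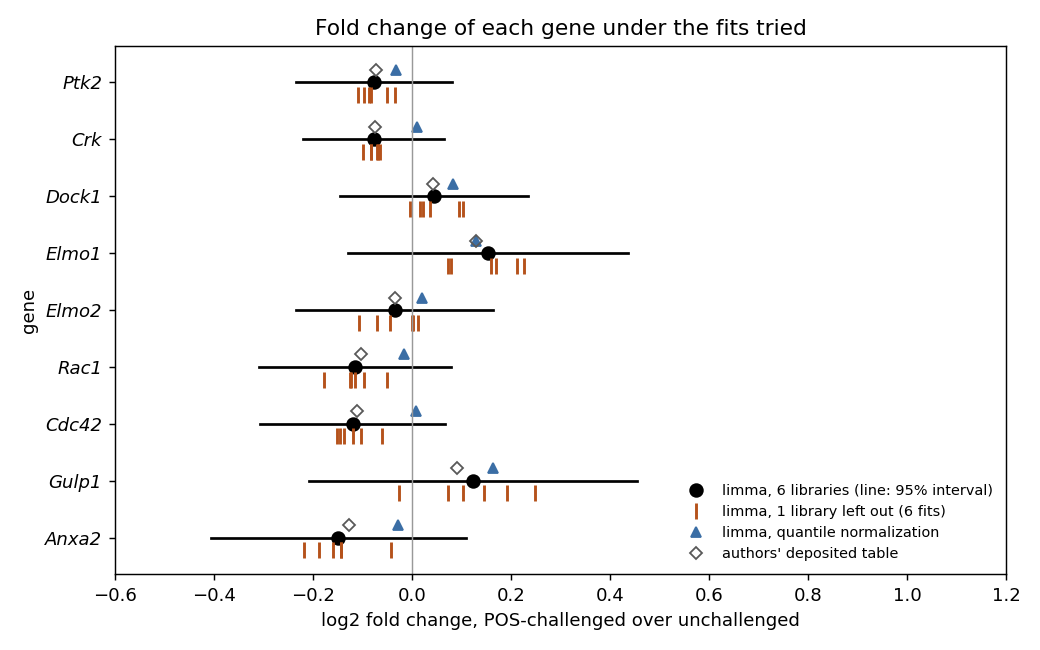
Log2 fold change of each gene, POS-challenged over unchallenged, from limma with its 95% interval, from the fits that leave out 1 library each, with quantile normalization, and in the authors' deposited table. All 9 intervals include 0, and Crk, Cdc42 and Elmo2 change sign with quantile normalization.

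Library by library, the 9 genes deviated from their own 6-library means by a median of -0.0086, 0.0053 and -0.091 on the log2 scale in POS-challenged replicates 1 to 3, against 0.056, 0.078 and 0.030 in unchallenged replicates 1 to 3. POS-challenged replicate 3 was thus the lowest library, and it was also the one low in sterol synthesis genes. The part of that library's state in the values was not tested. Without it the median log2 fold change of the 9 was -0.042. In the authors' deposited table all 9 signs were those of limma, with log2 fold changes between -0.13 (Anxa2) and 0.13 (Elmo1) and adjusted p between 0.641 (Cdc42) and 0.944 (Elmo2). It rests on the same 6 libraries.

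The wider route was followed in 8 lists of related genes, and 0 genes of any of them passed the adjusted p of 0.05 in limma. Upstream, of 19 measured genes listed for particle uptake, 9 had a positive and 10 a negative fold change (median -0.14, 0.029 without POS-challenged replicate 3 and 0.00020 with quantile normalization). Not all 19 code for uptake receptors: the list also holds Jmjd6, the transporter genes Abca1 and Abca7, and Cd47 and Sirpa. At an unadjusted limma p under 0.05 there were 1 higher and 6 lower, beside 4.87% and 6.58% of all genes. The authors' deposited table called 1 higher and 2 lower, beside 0.871% and 1.68% of its genes. Megf10, whose product is a CED-1 relative that GULP1 binds, stood at 383, 296 and 288 in POS-challenged replicates 1 to 3, against 209, 241 and 203 in unchallenged replicates 1 to 3. It was the gene of this list called higher in the authors' deposited table (adjusted p = 0.0418 there), while limma gave a log2 fold change of 0.56 ± 0.14 (adjusted p = 0.276). Scarf1, for another CED-1 relative, stood at 28.1, 34.2 and 24.2 in POS-challenged replicates 1 to 3, against 78.7, 47.9 and 55.5 in unchallenged replicates 1 to 3 (adjusted p = 0.0477 in the authors' deposited table and 0.250 in limma). The level of Scarf1 was near the lower end of those measured. Jmjd6, which codes for a nuclear dioxygenase once described as a phosphatidylserine receptor, stood at 2208, 2169 and 2009 in POS-challenged replicates 1 to 3, against 2932, 2769.6 and 2840.0 in unchallenged replicates 1 to 3 (adjusted p = 0.000129 in the authors' deposited table and 0.124 in limma). None of these 3 genes had overlapping groups. Among the 19 genes the groups were apart for 1 higher and 6 lower, beside 9.56% and 10.4% of all genes. Lrp1, for the other receptor type that binds GULP1, and the integrin gene Itgb1 were the most abundant. Lrp1 averaged 100933 ± 17326 in POS-challenged and 98124 ± 9669.5 in unchallenged libraries (limma adjusted p = 0.963), and Itgb1 54567 ± 7506 and 61198 ± 1190.3 with the groups in that order (limma adjusted p = 0.614). Itgb5, for the integrin chain that binds outer segments, averaged 11903 ± 1917 in POS-challenged and 11673 ± 1117 in unchallenged libraries (limma adjusted p = 0.970).

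Of 24 partners of focal adhesion kinase, 12 had a positive and 12 a negative fold change (median 0.0086, and -0.012 without unchallenged replicate 3). At an unadjusted limma p under 0.05 there were 2, both lower, beside 6.58% of all genes. They were Grb2, for an adaptor that links receptors to Ras, and Lpxn, for a relative of paxillin. The level of Lpxn was near the lower end of those measured. Grb2 averaged 2504 ± 127 in POS-challenged and 2868 ± 225 in unchallenged libraries (limma adjusted p = 0.417), and Lpxn 24.6 ± 3.70 and 39.6 ± 6.57 with the groups in that order (limma adjusted p = 0.368). Vcl and Tln1, for the vinculin and talin that tie integrins to actin, were the most abundant. Vcl averaged 38365 ± 9243 in POS-challenged and 43813 ± 3349 in unchallenged libraries (limma adjusted p = 0.668), and Tln1 23761 ± 3572 and 25326 ± 628 with the groups in that order (limma adjusted p = 0.759).

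Of 23 genes, those of other exchange factors and Elmo3, 14 had a positive and 9 a negative fold change (median 0.038). The median was 0.0017 without unchallenged replicate 1, and without unchallenged replicates 1 and 3 there were 8 positive and 15 negative (median -0.045). In the 6 libraries 1 of the 23 was higher at an unadjusted limma p under 0.05, beside 4.87% of all genes. That was Fgd1, for an exchange factor of CDC42, at 439.9, 434 and 459 in POS-challenged replicates 1 to 3, against 373, 351 and 348 in unchallenged replicates 1 to 3 (log2 fold change 0.31 ± 0.084, limma adjusted p = 0.283). Its groups did not overlap. Among the 23 genes the groups were apart for 2 higher and 1 lower, beside 9.56% and 10.4% of all genes. Dock4, with the next smallest p, averaged 681 ± 103 in POS-challenged and 829 ± 79.8 in unchallenged libraries (limma adjusted p = 0.454). Trio, among the most abundant, averaged 8435 ± 471 in POS-challenged and 9078 ± 268 in unchallenged libraries (limma adjusted p = 0.575).

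Genes whose products switch the GTPases off or hold them in the cytosol were counted next. Of 17, 12 had a positive and 5 a negative fold change (median 0.098). The split was 9 and 8 without unchallenged replicate 2, and 14 and 3 without unchallenged replicate 1. At an unadjusted limma p under 0.05 there were 1 higher and 0 lower, beside 4.87% and 6.58% of all genes. Among the 17 the groups were apart for 3 higher and 1 lower, beside 9.56% and 10.4% of all genes. Srgap1, for a GTPase-activating protein of the Slit and Robo pathway, stood at 1739.6, 1756 and 2036 in POS-challenged replicates 1 to 3, against 1499.6, 1444 and 1434 in unchallenged replicates 1 to 3. The groups did not overlap. Srgap1 was the 1 of 17 called in the authors' deposited table, as higher (adjusted p = 0.0415 there), beside 0.871% of its genes. It was not called in limma (log2 fold change 0.33 ± 0.080, adjusted p = 0.252). Chn1, for a Rac-directed GTPase-activating protein, averaged 227 ± 47.3 in POS-challenged and 171 ± 14.6 in unchallenged libraries (limma adjusted p = 0.439). Arhgdia, for a dissociation inhibitor that holds such GTPases in the cytosol, and Arhgap1 were the most abundant. Arhgdia averaged 20866 ± 860.3 in POS-challenged and 20944 ± 599 in unchallenged libraries (limma adjusted p = 0.987), and Arhgap1 3951 ± 345 and 4105 ± 148 with the groups in that order (limma adjusted p = 0.801).

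Of 15 other small GTPase genes of the family that holds RAC1 and CDC42, 5 had a positive and 10 a negative fold change (median -0.13, and -0.013 with quantile normalization). At an unadjusted limma p under 0.05 there were 1 higher (Rhobtb2) and 3 lower (Rnd3, Rhog and Rhoq), again beside 4.87% and 6.58% of all genes. Rnd3, for an atypical GTPase that antagonises RhoA signalling, stood at 8771, 9858 and 10288 in POS-challenged replicates 1 to 3, against 12134, 14501 and 12353 in unchallenged replicates 1 to 3. The groups were apart. Rnd3 was the 1 of 15 called in the authors' deposited table, as lower (adjusted p = 0.0127 there), beside 1.68% of its genes. In limma its log2 fold change was -0.43 ± 0.10 (adjusted p = 0.242). Rhog, whose product recruits ELMO to the membrane, stood at 1950.0, 1991 and 1683 in POS-challenged replicates 1 to 3, against 2539, 2061 and 2292 in unchallenged replicates 1 to 3. Its groups did not overlap, with POS-challenged values below (log2 fold change -0.29 ± 0.10, limma adjusted p = 0.378). Among the 15 genes the groups were apart for 1 higher and 5 lower, beside 9.56% and 10.4% of all genes. Rhobtb2 averaged 382 ± 40.6 in POS-challenged and 292 ± 35.4 in unchallenged libraries (limma adjusted p = 0.362), and Rhoc, the most abundant, 15755 ± 751 and 17283 ± 340.2 with the groups in that order (limma adjusted p = 0.511).

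Downstream, 13 of 32 effector genes of RAC1 and CDC42 had a positive and 19 a negative fold change (median -0.016). The split was 16 and 16 without POS-challenged replicate 3 (median 0.011) and 18 positive and 14 negative with quantile normalization (median 0.016). In the 6 libraries 2 of the 32 were higher at an unadjusted limma p under 0.05, beside 4.87% of all genes. Wipf1, for a WASP-binding protein, averaged 276 ± 10.5 in POS-challenged and 219.8 ± 18.3 in unchallenged libraries (limma adjusted p = 0.358), and the kinase gene Pak6, near the lower end of the table, 30.5 ± 0.301 and 20.5 ± 5.52 with the groups in that order (limma adjusted p = 0.427). The most abundant were Cfl1, for the actin-severing protein cofilin, and Iqgap1, for a scaffold that binds both GTPases. Cfl1 averaged 27011 ± 2695 in POS-challenged and 31034 ± 1543 in unchallenged libraries (limma adjusted p = 0.491), and Iqgap1 15577 ± 2348 and 16169 ± 364 with the groups in that order (limma adjusted p = 0.853).

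The 9 genes of the ARP2/3 complex, which nucleates branched actin, all had a negative fold change (median -0.14), beside 48.3% of all genes. With quantile normalization 6 of 9 were negative (median -0.039), and the median without POS-challenged replicate 3 was -0.076. Arpc5 and Arpc3, 2 of the 9, were lower at an unadjusted limma p under 0.05, beside 6.58% of all genes. Arpc5 stood at 4438, 4561 and 3979 in POS-challenged replicates 1 to 3, against 5091, 4918 and 4879 in unchallenged replicates 1 to 3 (log2 fold change -0.20 ± 0.072, limma adjusted p = 0.385). Arpc3 stood at 2960.4, 2918 and 2555 in POS-challenged replicates 1 to 3, against 3194, 3152 and 3249 in unchallenged replicates 1 to 3 (log2 fold change -0.19 ± 0.075, limma adjusted p = 0.411). In both, POS-challenged replicate 3 was the lowest library and the groups did not overlap. The groups were apart for 5 of the 9, all with POS-challenged values below, beside 10.4% of all genes in that direction. Arpc2 and Arpc1b were the most abundant subunit genes. Arpc2 averaged 9686 ± 788 in POS-challenged and 10631 ± 109 in unchallenged libraries (limma adjusted p = 0.532), and Arpc1b 8332 ± 1361 and 9673 ± 529 with the groups in that order (limma adjusted p = 0.522).

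Of 13 other annexin and S100 genes, 3 had a positive and 10 a negative fold change (median -0.076), and without POS-challenged replicate 3 the split was 7 positive and 6 negative (median 0.0019). The median was 0.012 without unchallenged replicate 3 and 0.0049 with quantile normalization. Anxa4 and S100a10, 2 of the 13, were lower at an unadjusted limma p under 0.05, beside 6.58% of all genes. Among the 13 genes the groups were apart for 0 higher and 3 lower, beside 9.56% and 10.4% of all genes. Anxa4 averaged 1698 ± 160.3 in POS-challenged and 2118 ± 159.7 in unchallenged libraries (limma adjusted p = 0.325). The most abundant were Anxa3, at 22866 ± 3094 in POS-challenged and 22795 ± 3028 in unchallenged libraries (limma adjusted p = 0.995), and S100a6, at 20707 ± 4083 and 22204 ± 1667 with the groups in that order (limma adjusted p = 0.787).

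**Figure D4:**
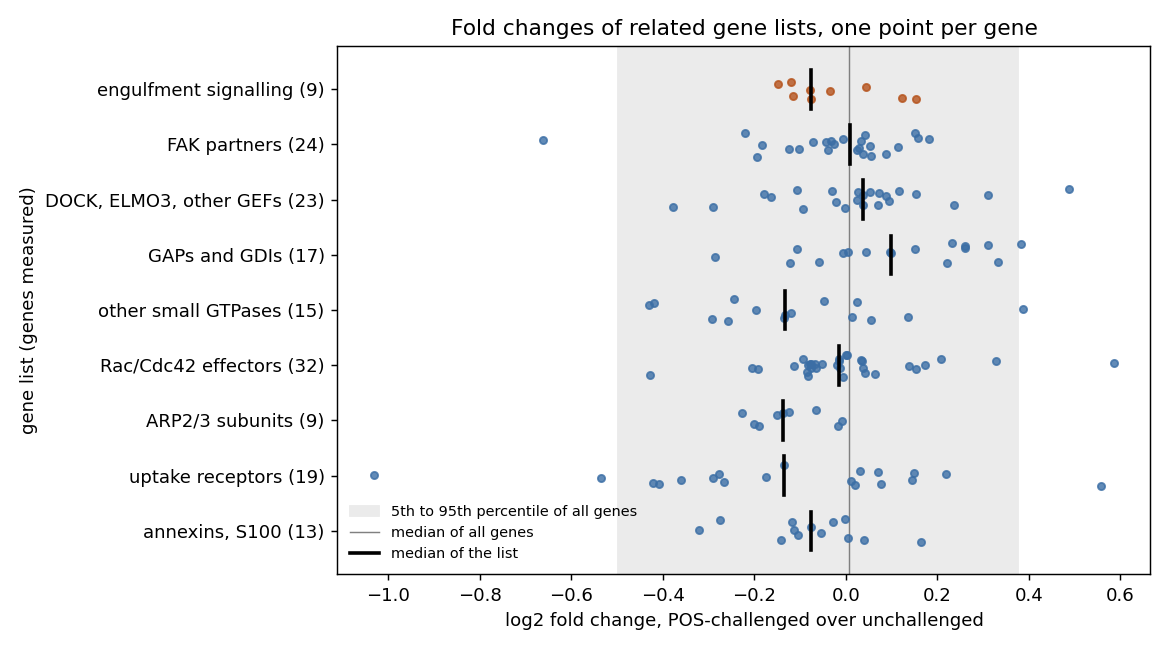
Log2 fold change, POS-challenged over unchallenged, of every measured gene in the set of 9 and in the 8 related lists, with list medians and the range between the 5th and the 95th percentile of all genes (-0.50 to 0.38). The set of 9 lies between -0.15 and 0.15, and the ARP2/3 genes all lie below 0 on this scale, 6 of 9 with quantile normalization.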

How the data were processed

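Poly(A) RNA of 6 primary RPE cultures was sequenced on 2 lanes per library (Genome Analyzer IIx), according to the labels' protocols. GSNAP, DESeq2 and mm10 are named, without versions, in the submitters' processing notes. For the annotation, the counting tool and strand, nothing is given in the sources used here. The 6 library columns hold a signal scaled by the authors: by their values, read counts over a factor for each library (100% of values lie within 0.001 of a whole read). Further columns of the deposited table are the authors' log2 fold change with its error, a score headed only stat, and p-values before and after adjustment, as the file headers name them.

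The values were tested as log2(value + 1) with limma 3.58.1 (R 4.3.3) with a trend, group as the only term, a minimum mean of 10 that removed 0 genes, and Benjamini-Hochberg adjustment over 12556 genes. Fold changes are POS-challenged over unchallenged on that scale, which understates those of low genes. The fit was tested on simulated data. The 7 within-library log2 ratios had a two-sided exact permutation test. No set test or count test was run. The 9 genes and all lists were chosen with earlier results of these data known.

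Named were the 9 genes, the ratio partners, the genes most like Gulp1 and Elmo1, and per list the 2 most abundant genes, the 2 with the smallest p and those called in the authors' deposited table. Not every gene that this rule names is reported here. Bcar1, Elmo3, Itgb5, Rhog and Rhoq were named after their values were seen, and Daglb, Rpe65 and Sag as checks. Cdh1 and Tyr were named as the lowest and highest RPE markers. Alternatives were pseudocounts of 0.1 and 5, no minimum mean and one of 100, quantile normalization, the replicate number as a block, libraries left out, and the authors' deposited table.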

Additional observations from a re-analysis of the deposited data

How the results depend on the processing

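Of 126 values of the 9 genes under the alternatives, 117 kept their direction and 0 passed the adjusted p of 0.05. Part of that tally could not turn: both settings of the minimum mean and the replicate block leave these fold changes as they were. The pseudocounts barely move genes at these levels. Directions turned with quantile normalization for Cdc42 (0.0085), Elmo2 (0.020) and Crk (0.011), and without unchallenged replicates 1 and 3 (1 unchallenged library then remains, assumed to vary like the rest) for Dock1 (-0.056), Gulp1 (-0.13) and the ratio of Ptk2 to Ptk2b (0.060). With 1 library left out, the log2 fold change ran from -0.0043 to 0.10 for Dock1, -0.11 to 0.012 for Elmo2 and -0.025 to 0.25 for Gulp1, which turned, and from -0.11 to -0.034 for Ptk2, -0.098 to -0.065 for Crk, 0.073 to 0.23 for Elmo1, -0.18 to -0.051 for Rac1, -0.15 to -0.061 for Cdc42 and -0.22 to -0.042 for Anxa2, which did not. The ratio difference ran from -0.026 to 0.029 for Rac1 over Cdc42, -0.058 to 0.090 for Anxa2 over S100a10 and -0.014 to 0.021 for Rac1 over Rhoa. The cause was not tested.

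Over all genes 12 passed in limma (8 higher, 4 lower), 308 in the authors' deposited table (105 and 203), and 0 in limma without unchallenged replicates 1 and 3 (0 and 0), where 403 had an unadjusted p under 0.05. With 1 library left out the count ran from 1 to 120 (1 to 12 higher, 0 to 108 lower): without POS-challenged replicates 1, 2 and 3 it was 2, 1 and 13, and without unchallenged replicates 1, 2 and 3 it was 2, 120 and 1. With the replicate number as a block the count was 1 (1 higher, 0 lower), and the block changed no call among the 9 genes. Libraries of the same number share only that number: their deviations correlated at -0.35, 0.17 and 0.17, and not every library correlated best with its own number. Even the lowest of the 9 genes, Elmo1, had 303 or more normalized read counts in each library, so none of the 9 was near the limit of detection.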
